A study of Mus musculus with 8 samples.

Results

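The genes described here handle iron and heme in macrophages, together with Spic, a transcription factor of the ETS family that marks the macrophages of the splenic red pulp. The set was chosen by name as genes of iron storage, import, export and heme recycling, and holds 10 genes of the 23761 that the expression table lists. They are Spic, Slc40a1, Fth1, Ftl1, Tfrc, Slc11a1, Slc11a2, Cd163, Ncoa4 and Slc48a1. Of the 10, 8 have a row under their own Ensembl identifier.

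Bone marrow-derived macrophages (BMDMs), grown in culture from marrow cells, were prepared from 3-month-old mice, and their RNA was sequenced in 8 libraries. The methods of the study give C57BL/6J as the background of its mice. The LysM group (n = 4) carries LysM Cre/Cre, that is, Cre recombinase at both copies of the lysozyme M gene. The K2KO group (n = 4) carries LysM Cre/Cre with KLF2 flox/flox, so that Cre is present in both groups and the floxed alleles in one of them. Deletion is thus limited to myeloid cells that use the lysozyme M promoter. Marrow cells were cultured for 6 days in medium conditioned by L929 cells, a fibroblast line, and replated. The labels give 1 library per mouse and mark all of them as vehicle. In the text LysM0 to LysM3 are the LysM libraries, and K2KO0 to K2KO3 those of the other group, in the numbering of the table's columns, from which the genotype but not the individual mouse is known.

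Expression is given in FPKM, the fragments of a transcript divided by its length and by the number of fragments mapped, so that levels are per length. The summed FPKM were 497253, 537664, 540497 and 551608 in LysM0 to LysM3, and 448235, 460383, 483726 and 501965 in K2KO0 to K2KO3. FPKM are not counts, and the depth behind each value is unknown. Gapdh, which every cell uses, was listed at 0 to 0.4999 FPKM over the 8 libraries, so low values say little about whether a transcript was present. Differences were tested with limma on the log2(FPKM + 0.1) scale. The 10920 genes that averaged 1 FPKM or more were tested, and a gene was called where its log2 fold change exceeded 0.26 in either direction with a Benjamini-Hochberg adjusted p under 0.05. Fold changes on this scale understate those of genes with low FPKM.

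Klf2, the targeted gene (GRCm38 chromosome 8, 72319033 to 72321656, plus strand), was at 44.1, 52.9, 64.7 and 72.8 FPKM in LysM0 to LysM3, and at 45.5, 41.6, 59.2 and 59.3 FPKM in K2KO0 to K2KO3. The groups overlapped, with a log2 fold change of -0.18 (SE 0.17, limma adjusted p = 0.460). It ranged from -0.31 (without LysM0) to -0.070 (without LysM3) with 1 library left out, and correction for GC content and length, described next, turned it to 0.049 (adjusted p = 0.865). Coverage of single exons, which a deletion would remove, cannot be read from FPKM of the gene. Statements of direction below therefore refer to the libraries labelled K2KO.

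In most libraries the deviation from the gene mean followed the GC content of the transcript, and did so in opposite directions in the groups. Spearman's rho over 10899 genes was 0.42, 0.41, 0.050 and 0.38 in LysM0 to LysM3, and -0.31, -0.34, -0.51 and 0.068 in K2KO0 to K2KO3. LysM2 and K2KO3 stood apart from the rest of their groups in this respect. Spic, Slc40a1 and Ncoa4 have a GC content of 45.0%, 43.5% and 43.8%, in the second-lowest eighth of tested genes, whose median log2 fold change was 0.13. The value after each library was corrected for GC and length is therefore given below for the members and their copies, and for other called genes that are named where it ended the call.

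The cultures carried the markers of macrophages. All 10 macrophage markers were tested, and their summed FPKM was 6291, 6722, 6833 and 7188 in LysM0 to LysM3, and 5110.4, 4774, 5151 and 5503 in K2KO0 to K2KO3. These sums did not overlap and averaged 6758 and 5134 FPKM, and C1qa, which is part of them, averaged 2685 and 1338 FPKM. Of these 10, Adgre1 (the F4/80 antigen), Csf1r and 5 others were not called. Among those 5, Cd14 was lower in every library labelled K2KO than in any LysM library (log2 fold change -0.32, limma adjusted p = 0.0630). It was -0.23 (adjusted p = 0.122) after correction for GC content and length and -0.017 with quantile normalization. Mertk was called higher, and Lyz2, the gene that holds Cre, and C1qa, the most abundant, were called lower. Both groups carry Cre at both copies of Lyz2, so its values are not those of an unaltered gene. Correction for GC content and length took away the call of Lyz2 (limma adjusted p = 0.0560), which was also lost without LysM1, LysM3, K2KO0 or K2KO2 (0.0634 to 0.0909), whereas that of C1qa was kept in each of these fits. The call of Mertk was lost after the correction (adjusted p = 0.0924) and without any library but LysM0 and K2KO3 (0.0669 to 0.0938). In bulk RNA, fewer cells of a type and less RNA per cell cannot be told apart.

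Iron enters macrophages bound to transferrin, or as heme from engulfed red cells, whose ring is opened by heme oxygenase. The freed iron is stored in ferritin, a shell of heavy and light chains, or leaves the cell through ferroportin, and iron held in ferritin is freed again when autophagy carries ferritin to the lysosome. Red pulp macrophages do this at a high rate, and Spic is required for their development and is induced by heme.

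Part of this system is controlled by iron-responsive elements, hairpins in untranslated regions of messenger RNA to which iron regulatory proteins bind when iron is low. An element in the 5' UTR blocks translation, whereas elements in the 3' UTR protect the message from decay. The elements are shown because they divide the set into genes with an element before the coding sequence and the one with elements after it. They were searched as a C, 5 bases, the loop CAGTGN, and 5 bases that pair with the first 5, with G-T pairs allowed, on the sense strand of GENCODE M21 transcripts. Capitals mark the loop.
Fth1, 5' UTR, chr19:9982738-9982754, plus strand: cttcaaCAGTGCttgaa
Ftl1, 5' UTR, chr7:45459785-45459801, minus strand: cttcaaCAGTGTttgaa
Slc40a1, 5' UTR, chr1:45925471-45925487, minus strand: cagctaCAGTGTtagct
Tfrc, 3' UTR, chr16:32631225-32631241, plus strand: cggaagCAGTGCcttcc
Tfrc, 3' UTR, chr16:32631604-32631620, plus strand: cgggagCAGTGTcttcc
Tfrc, 3' UTR, chr16:32631669-32631685, plus strand: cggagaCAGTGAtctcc
Tfrc, 3' UTR, chr16:32631716-32631732, plus strand: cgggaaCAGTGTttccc
A match was found in the 5' UTR of 3 of the 10 genes and of 0.151% of all 20597 genes with a 5' UTR. In the 3' UTR it was found in 1 of the 10, Tfrc, which holds 4, and in 0.615% of 20979 genes. Slc11a2 and the other members held no match to these letters.

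Of the 6 members that passed the filter of a mean FPKM of 1, Slc40a1 and Ncoa4 were called higher in the libraries labelled K2KO, none was called lower (0 also at an unadjusted p under 0.05), and 4 were not called. Over all tested genes 18.4% were called, 9.84% higher and 8.61% lower. Upper-quartile scaling between libraries moved the share of calls that were higher from 53.3% to 64.1%. Spic and Cd163 lie under the filter and were taken from the fit that takes in genes averaging 0.1 FPKM or more, in which 12.7% of 14521 genes were called and in which Spic was called higher. After the correction for GC content and length 0 of the 6 members passed (limma, 4 at an unadjusted p under 0.05), when 8.22% of all tested genes were called. The genotype groups did not overlap for 1 of the 6, Slc40a1, against 23.1% of all tested genes.

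**Figure D1:**
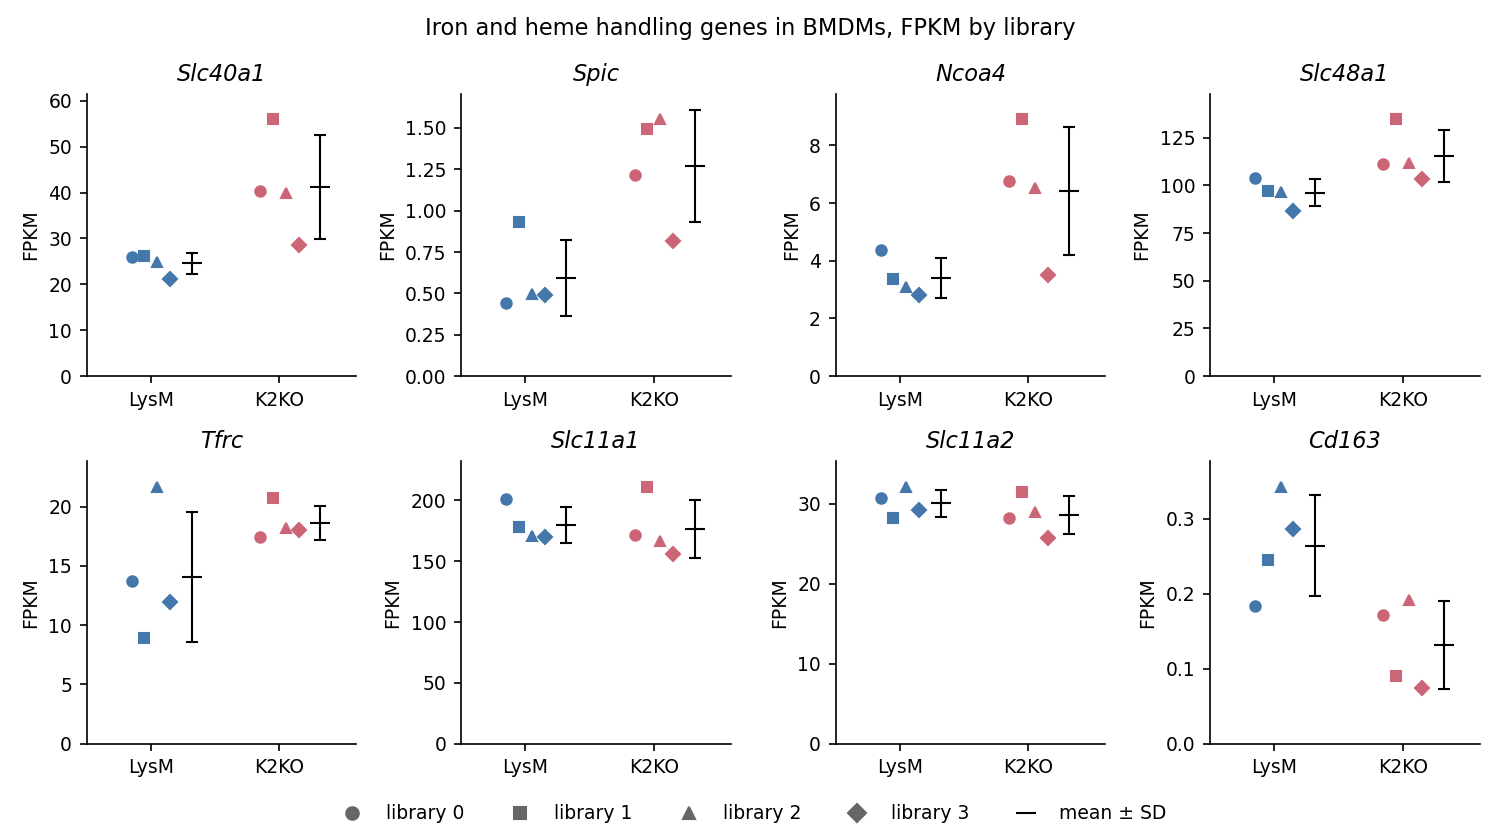
FPKM (vertical axes, from 0) of 8 iron and heme handling genes in each of the 4 LysM and 4 K2KO libraries, with a symbol per library number and the mean ± SD in black. The Slc40a1 libraries of the K2KO group sit between 28.5 and 56.0 FPKM, all above the LysM libraries, while K2KO3 (diamonds) overlaps the LysM range for Spic, Ncoa4 and Slc48a1.

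Slc40a1 encodes ferroportin, the exporter of iron from cells, and lies on chromosome 1 (45908068 to 45926523, minus strand). It was at 26.1, 26.2, 24.8 and 21.2 FPKM in LysM0 to LysM3, and at 40.2, 56.0, 40.0 and 28.5 FPKM in K2KO0 to K2KO3. Every library labelled K2KO was above every LysM library, with K2KO3 nearest to them. Its log2 fold change of 0.71 (SE 0.18) passed the test (limma adjusted p = 0.0262), and the exact two-sided permutation test gave p = 0.0286, the smallest that 4 against 4 allows. After correction for GC content and length it was 0.55 (adjusted p = 0.0586). The call was lost without any one of LysM1, LysM2, LysM3, K2KO0, K2KO1 and K2KO2 (adjusted p 0.0515 to 0.0956), and was kept without LysM0 or K2KO3. Without K2KO3 the log2 fold change was 0.87 (adjusted p = 0.00579). With no filter on low values the adjusted p was 0.0604.

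Spic lies on chromosome 10 (88674772 to 88685015, minus strand). It was at 0.444, 0.933, 0.495 and 0.492 FPKM in LysM0 to LysM3, and at 1.22, 1.495, 1.55 and 0.816 FPKM in K2KO0 to K2KO3. In the libraries labelled K2KO, 3 were above all LysM libraries, and K2KO3 lay below LysM1. The log2 fold change was 1.00 (SE 0.26, limma adjusted p = 0.0375), and the permutation test gave p = 0.0571. It was 0.90 after correction for GC content and length (adjusted p = 0.0578) and 0.89 with quantile normalization (adjusted p = 0.0541). The call was also lost without an intensity trend (adjusted p = 0.0551) and with no filter on low values (0.0689), and with a pseudocount of 1 the log2 fold change was 0.51 (adjusted p = 0.0404). The call was kept without LysM1 (log2 fold change 1.21, adjusted p = 0.0436) or K2KO3 (1.18, adjusted p = 0.0155), and lost without each of the other 6 libraries (adjusted p 0.0642 to 0.117). All of these values come from a gene at about 1 FPKM. The last bases of its 1763-base transcript, from about position 1424, are at least 95% identical to stretches of 14 other genes, 8 of them listed, and the rest of the transcript showed no such copy.

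The tested genes whose profile over the 8 libraries was most like that of Spic were Tcf20 (Pearson's r 0.99), BC048403 (0.99), Ddx19a (0.97), Ccdc47 (0.97) and Khdrbs1 (0.96), on the log2(FPKM + 0.1) scale. With the genotype means removed these were 0.97, 0.96, 0.92, 0.94 and 0.89. They are a description over 8 libraries that share genotype and a trend in GC content.

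Ncoa4 encodes the receptor that carries ferritin to the autophagosome, on chromosome 14 (32159865 to 32179855, plus strand). It was at 4.38, 3.38, 3.07 and 2.80 FPKM in LysM0 to LysM3, and at 6.75, 8.91, 6.54 and 3.52 FPKM in K2KO0 to K2KO3. The groups overlapped through K2KO3, which lay below LysM0. Its log2 fold change of 0.84 (SE 0.25) passed the test narrowly (limma adjusted p = 0.0453). It was 0.67 (adjusted p = 0.0966) after correction for GC content and length, and the call was lost without any one of the same 6 libraries as for Slc40a1 (adjusted p 0.0997 to 0.142). Without K2KO3 it was 1.101 (adjusted p = 0.00551). The call was also lost with quantile normalization (adjusted p = 0.0673), without an intensity trend (0.0595), with no filter on low values (0.09997) and in the fit down to 0.1 FPKM from which Spic was taken (0.0591).

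The value of Ncoa4 is uncertain, because the processed pseudogene Gm6768 on chromosome 12 is 99.9% identical to it over 1878 bases. Gm6768 was listed at 6.995, 5.25, 4.11 and 4.22 FPKM in LysM0 to LysM3, and at 12.2, 16.4, 11.4 and 6.23 FPKM in K2KO0 to K2KO3. It stood above Ncoa4 in every library, by a ratio of 1.498 ± 0.114 in the LysM libraries and 1.79 ± 0.0447 in those labelled K2KO (SD, n = 4 each). Its own log2 fold change was 1.11 (SE 0.28, limma adjusted p = 0.0268), and its call was lost without the same 6 libraries (adjusted p 0.0670 to 0.0979) and after correction for GC content and length (adjusted p = 0.0512, with nearly the same fold change). How reads were divided between the copies was not tested, and these rows are not separate observations.

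**Figure D2:**
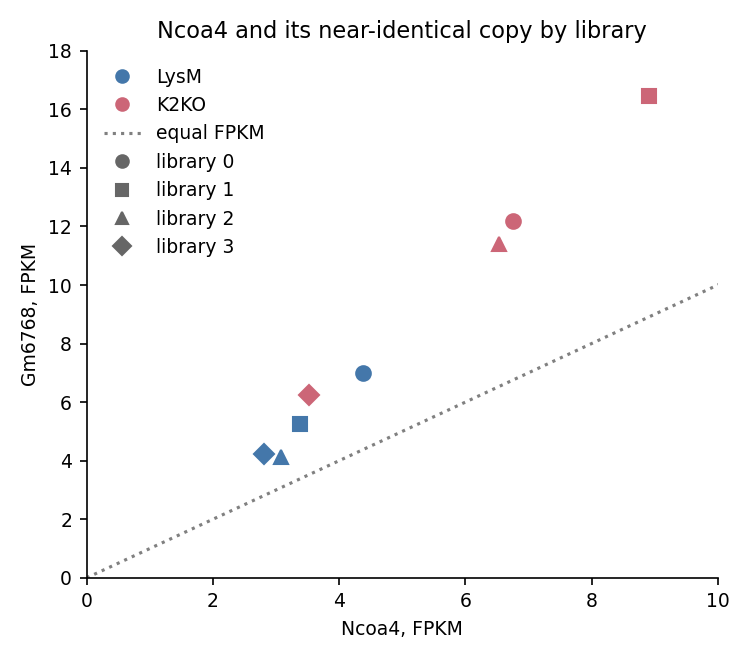
FPKM of Gm6768 (vertical axis) against FPKM of Ncoa4 (horizontal axis) in each library, coloured by genotype, with a symbol per library number and a dotted line at equal FPKM. All 8 libraries lie above the line, and K2KO3 lies among the LysM libraries.

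Slc48a1 encodes HRG1, which moves heme from the phagolysosome to the cytosol (chromosome 15, 97778520 to 97792692, plus strand). It was at 104, 97.0, 96.4 and 86.8 FPKM in LysM0 to LysM3, and at 111, 135, 112 and 103 FPKM in K2KO0 to K2KO3. Of the libraries labelled K2KO, 3 lay above all LysM libraries and K2KO3 lay just below LysM0. The log2 fold change of 0.26 (SE 0.09) did not pass the test (limma adjusted p = 0.0746). It passed without K2KO3 (0.31, adjusted p = 0.0381) and with quantile normalization (0.40, adjusted p = 0.0424), and was 0.34 (adjusted p = 0.0603) after correction for GC content and length. Hdac7, at up to 5.15 FPKM, overlaps Slc48a1 on the opposite strand. The methods of the study name a library kit that keeps the strand, but the strand setting of the quantification is not given in the sources used here.

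Tfrc, the transferrin receptor (chromosome 16, 32608920 to 32632794, plus strand), was at 13.7, 8.95, 21.7 and 11.9 FPKM in LysM0 to LysM3, and at 17.4, 20.7, 18.2 and 18.04 FPKM in K2KO0 to K2KO3. The LysM libraries spread widely, and LysM2 was the highest of all 8. The log2 fold change was 0.47 (SE 0.22, limma adjusted p = 0.150), within the spread between libraries. Without LysM2 it was 0.70 (adjusted p = 0.0328) and without LysM1 0.28 (adjusted p = 0.324), and after correction for GC content and length, with all libraries, it was 0.21 (adjusted p = 0.515).

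Slc11a1 and Slc11a2 encode NRAMP1 and DMT1, transporters of divalent metals that act at the phagosome and the endosome. Their FPKM do not show whether the proteins transport metal in these cells. Slc11a1 (chromosome 1, 74375195 to 74386062, plus strand) was at 201, 178, 171 and 169.6 FPKM in LysM0 to LysM3, and at 172, 211, 167 and 156 FPKM in K2KO0 to K2KO3. Slc11a2 (chromosome 15, 100387898 to 100425072, minus strand) was at 30.7, 28.2, 32.1 and 29.2 FPKM in LysM0 to LysM3, and at 28.3, 31.5, 29.0 and 25.7 FPKM in K2KO0 to K2KO3. The groups overlapped for both. The log2 fold change of Slc11a1 was -0.03 (SE 0.10, limma adjusted p = 0.826), with a sign that depended on the scaling, and that of Slc11a2 was -0.07 (SE 0.07, adjusted p = 0.487). The value of Slc11a2 ranged from -0.12 (without K2KO1) to -0.023 (without K2KO3) with 1 library left out, and was -0.027 with quantile normalization and -0.030 with upper-quartile scaling. After correction for GC content and length Slc11a1 was at 0.047 (adjusted p = 0.804) and Slc11a2 at -0.16 (adjusted p = 0.133) on the log2 scale.

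Cd163, the scavenger receptor for hemoglobin bound to haptoglobin (chromosome 6, 124304656 to 124330527, plus strand), was the lowest of the members. It was at 0.183, 0.244, 0.343 and 0.286 FPKM in LysM0 to LysM3, and at 0.172, 0.0896, 0.192 and 0.0745 FPKM in K2KO0 to K2KO3. The libraries labelled K2KO were lower on average and overlapped the LysM libraries through K2KO2. The log2 fold change of -0.67 (SE 0.27) did not pass (limma adjusted p = 0.130, exact permutation p = 0.0571). It was -0.79 (adjusted p = 0.0957) after correction for GC content and length. At this level its size depended on the pseudocount, with -0.16 for a pseudocount of 1 and -1.01 for 0.01.

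The ferritin genes Fth1 and Ftl1 were not analysed here under their own identifiers. The row named Fth1 carries the identifier of Fth-ps3, a processed pseudogene on chromosome 8 (86915157 to 86915514, plus strand) that is 88.0% identical to the Fth1 transcript over 358 bases. It was at 1.63, 3.52, 1.15 and 1.96 FPKM in LysM0 to LysM3, and at 3.11, 3.60, 2.24 and 3.25 FPKM in K2KO0 to K2KO3 (log2 fold change 0.63, SE 0.29, limma adjusted p = 0.145). It was 0.75 (adjusted p = 0.130) after correction for GC content and length, passed without LysM1 (0.92, adjusted p = 0.0459) and with the column number as a block (adjusted p = 0.0468), and was 0.41 (adjusted p = 0.308) without LysM2. These values of 1.15 to 3.60 FPKM are therefore those of a pseudogene, not a level of the ferritin heavy chain. Of the copies of Ftl1, 5 are listed. The most abundant, Ftl1-ps1, named Gm10116 in the table, lies on chromosome 13 (74399694 to 74407346, plus strand) and is 99.6% identical to Ftl1 over 910 bases. It was at 4614, 3922, 3551 and 3392 FPKM in LysM0 to LysM3, and at 3258, 4337, 3779 and 3946 FPKM in K2KO0 to K2KO3, a log2 fold change of -0.01 (SE 0.12, limma adjusted p = 0.952). The sign turned after correction for GC content and length (0.21, adjusted p = 0.351), with quantile normalization (0.29, adjusted p = 0.193), with upper-quartile scaling (0.032) and without LysM0 (0.076) or K2KO0 (0.063). The groups overlapped throughout, and how reads were divided between Ftl1 and this copy over the shared stretch was not tested. The other 4, Gm15590, Ftl1-ps2, Gm12164 and Ftl2-ps, averaged between 1.199 and 14.2 FPKM in the LysM libraries, and none was called (limma adjusted p 0.299 to 0.879). After correction for GC content and length their log2 fold changes were 0.18, -0.16, 0.082 and 0.54 (adjusted p 0.177 to 0.828), in place of -0.043, -0.38, -0.14 and 0.31. Fth-ps2, a pseudogene 81.1% identical to the Fth1 transcript over 550 bases, was listed at 0 in 5 of the 8 libraries.

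The order of the members by mean FPKM over the 8 libraries was Slc11a1 (178), Slc48a1 (106), Slc40a1 (32.9), Slc11a2 (29.3), Tfrc (16.3), Ncoa4 (4.92), Spic (0.931) and Cd163 (0.198). The ranges over libraries overlapped for the neighbours Slc40a1 and Slc11a2, and no other neighbours in the order overlapped. The ratio of Slc40a1 to Slc11a2 was 0.819 ± 0.0899 in the LysM libraries and 1.42 ± 0.274 in the libraries labelled K2KO (SD, n = 4 each). That of Slc40a1 to Tfrc was 1.94 ± 0.742 and 2.20 ± 0.465. For the latter the groups overlapped, and LysM1 was the highest library at 2.93. K2KO1 was the highest K2KO library for 6 of the 8 members and K2KO3 the lowest for 7 of 8.

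**Figure D3:**
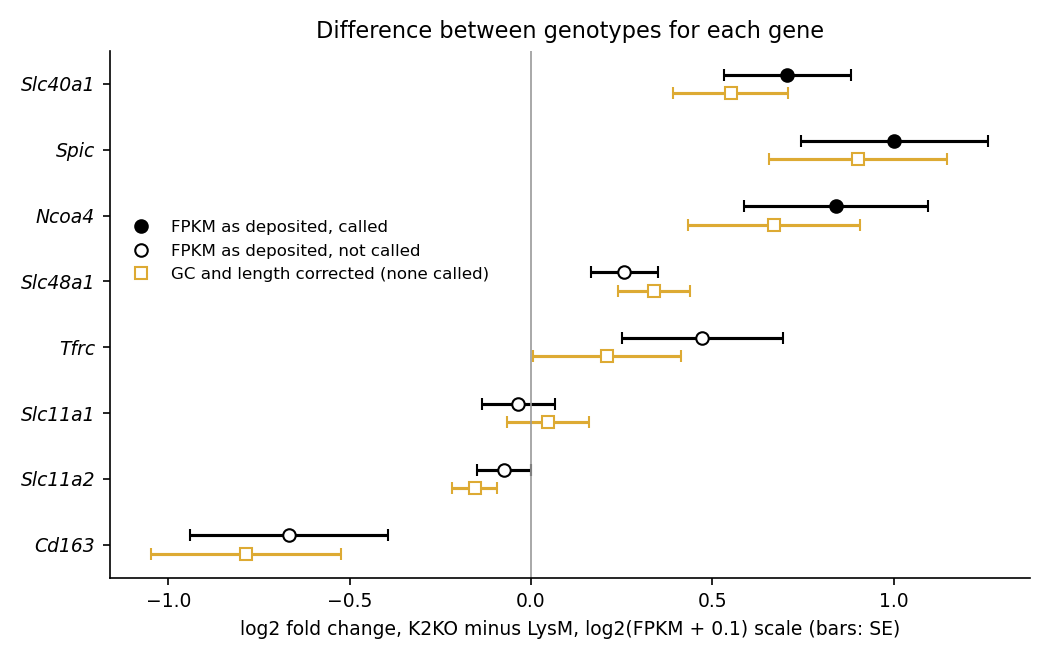
Log2 fold change (K2KO minus LysM, horizontal axis) with its SE for each member, from the FPKM as deposited (circles, filled where called) and after correction for GC and length (squares). Spic, Slc40a1 and Ncoa4 lie highest at 1.00, 0.71 and 0.84 and move to 0.90, 0.55 and 0.67 with the correction, which leaves no call.

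The rest of the pathway was described with 5 lists of other iron and heme genes. Of their 68 tested genes, 10 were called higher and 4 lower, or 20.6% against 18.4% of all tested genes, with a median log2 fold change of 0.012 against 0.011. Without the correction the share was near that of all genes. With it the medians were 0.0072 for the lists and -0.015 for all tested genes. After the correction for GC content and length 10 of the 68 were called, or 14.7% against 8.22% of all tested genes, all of them among the 14, and the calls of Iscu (log2 fold change -0.26, just inside the limit on size), Nfe2l2 (limma adjusted p = 0.108), Cpox (0.0779) and Fech (0.0847) were lost.

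The list of iron uptake, reduction and transport had 10 tested genes, and 0 were called with limma (3 at an unadjusted p under 0.05). Its median log2 fold change was 0.0029, and 0.068 after correction for GC content and length. The groups did not overlap for 2 of the 10, Slc39a8 and Slc39a14, against 23.1% of all tested genes. Both were higher in the libraries labelled K2KO, by 0.30 (limma adjusted p = 0.0607) and 0.24 (0.108) on the log2 scale. After the correction these were 0.19 (0.192) and 0.14 (0.330). Slc39a8 passed with upper-quartile scaling (0.34, adjusted p = 0.0476). Trf, transferrin itself and the most abundant of the list, was at 216 ± 28.0 FPKM in LysM and 217 ± 22.3 FPKM in K2KO libraries (SD, n = 4 each).

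Of 7 tested genes for iron export and systemic control, 1 was higher and 1 lower, with a median of 0.085. The median turned to -0.11 after correction for GC content and length. Bmp2, a ligand of the pathway that induces hepcidin in liver, fell from 9.08 ± 1.58 to 5.64 ± 1.19 FPKM (SD, n = 4 each; log2 fold change -0.68, SE 0.16, limma adjusted p = 0.0239). Smad4, the shared mediator of that pathway, rose from 7.35 ± 0.319 to 9.72 ± 1.14 FPKM (log2 fold change 0.39, SE 0.09, adjusted p = 0.0208). Bmp2 lost its call without LysM1, LysM2, LysM3, K2KO0 or K2KO2 (adjusted p 0.0587 to 0.0890), and Smad4 without any library but LysM0 and K2KO3 (0.0504 to 0.0795). Hfe, the most abundant, was at 33.8 ± 1.80 and 32.1 ± 3.13 FPKM and was not called.

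Of 17 tested genes for iron storage, chaperones and sensing, 2 were higher and 3 lower, with a median of -0.0020 (-0.036 after correction for GC content and length). The higher ones were Pcbp4 and Ciapin1. Pcbp4, of the family of RNA-binding proteins that also deliver iron to ferritin, was at 3.44, 2.63, 4.18 and 4.69 FPKM in LysM0 to LysM3, and at 9.53, 9.09, 8.56 and 8.62 FPKM in K2KO0 to K2KO3. Ciapin1, which serves cytosolic iron-sulfur cluster assembly, was at 4.87, 4.65, 5.01 and 4.80 FPKM, and at 7.34, 8.61, 9.48 and 8.89 FPKM. The groups were well apart for both, with log2 fold changes of 1.27 (SE 0.15, limma adjusted p = 0.00340) and 0.81 (SE 0.08, adjusted p = 0.00107), and both calls were kept without any one library.

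The lower genes of this list act with glutaredoxins and the mitochondrial cluster scaffold. Glrx5, a mitochondrial glutaredoxin, fell from 87.3 ± 4.17 to 63.5 ± 8.42 FPKM (log2 fold change -0.47, SE 0.09, limma adjusted p = 0.0147). Bola2, a partner of glutaredoxin 3, fell from 68.0 ± 4.10 to 48.1 ± 9.03 FPKM (-0.51, SE 0.12, adjusted p = 0.0209), and Iscu, the scaffold itself, from 82.7 ± 4.03 to 63.5 ± 7.52 FPKM (-0.39, SE 0.09, adjusted p = 0.0208). After correction for GC content and length Bola2 was at -0.30 (adjusted p = 0.0373). The groups did not overlap for any of the 3. Glrx5 lost its call without LysM3 or K2KO2 (adjusted p up to 0.0601), Bola2 without LysM1, LysM3, K2KO0, K2KO1 or K2KO2 (up to 0.0780), and Iscu without LysM1, LysM3, K2KO0 or K2KO1 (up to 0.0660). Pcbp1, the most abundant iron chaperone, was at 158 ± 10.1 and 158 ± 6.34 FPKM.

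Of 17 tested genes for heme uptake, breakdown and export, 3 were higher and none lower, with a median of 0.11. The median was 0.036 after correction for GC content and length. Flvcr1, a heme exporter, was at 21.5, 20.1, 19.4 and 16.8 FPKM in LysM0 to LysM3, and at 25.9, 27.0, 26.6 and 25.2 FPKM in K2KO0 to K2KO3. Its groups did not overlap (log2 fold change 0.43, SE 0.08, limma adjusted p = 0.0120), and the call was kept without any one library. Por, the reductase that gives electrons to heme oxygenase, rose by 0.40 (SE 0.11, adjusted p = 0.0330), and Nfe2l2, the transcription factor NRF2, by 0.30 (SE 0.08, adjusted p = 0.0380) on the log2 scale. Both lost their call without any library but LysM0 and K2KO3 (adjusted p 0.0532 to 0.103 for Por, 0.0859 to 0.109 for Nfe2l2). Hmox1, heme oxygenase 1 and the most abundant of the list, was at 556, 852, 704 and 581 FPKM in LysM0 to LysM3, and at 682, 852, 684 and 748 FPKM in K2KO0 to K2KO3. These overlapped (log2 fold change 0.15, SE 0.14, adjusted p = 0.442).

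Of 17 tested genes for heme synthesis, 4 were higher and none lower, while the median of the list was -0.083. The median was -0.010 after correction for GC content and length. Alas1, the first and rate-limiting enzyme outside red cells, was at 27.0, 29.1, 28.2 and 28.1 FPKM in LysM0 to LysM3, and at 40.6, 54.1, 47.0 and 44.0 FPKM in K2KO0 to K2KO3. The groups were well apart (log2 fold change 0.71, SE 0.09, limma adjusted p = 0.00319), and the call was kept without any one library. Fech, which inserts the iron, rose by 0.46 (SE 0.11, adjusted p = 0.0237), Cox15, which makes heme A, by 0.43 (SE 0.09, adjusted p = 0.0176), and Cpox, coproporphyrinogen oxidase, by 0.42 (SE 0.12, adjusted p = 0.0365). Fech lost its call without LysM2, LysM3, K2KO0, K2KO1 or K2KO2 (adjusted p up to 0.0881), Cox15 without LysM3, K2KO0, K2KO1 or K2KO2 (up to 0.0677), and Cpox without any library but LysM0 and K2KO3 (up to 0.109) or with quantile normalization (0.0858). Tmem14c, a porphyrin transporter and the most abundant of the list, was at 175 ± 8.93 and 165 ± 6.70 FPKM and was not called.

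Alas1 (chromosome 9, 106233455 to 106248654) and Pcbp4 (chromosome 9, 106453291 to 106464012) lie close to each other. Within 5 Mb of them on either side, 32.1% of 109 and 31.8% of 110 other tested genes were called, against 18.4% of all tested genes. Around Cpox it was 50% of 22 genes, the highest share around any member or called gene of the lists. Ciapin1 (94819804 to 94838358) lies on chromosome 8, as the targeted gene Klf2 does, and 24.3% of 37 genes around it were called. Around Klf2 the share was 19.6% of 97 genes. Around Slc40a1 the share was 25% of 16 genes, around Spic 18.9% of 37, and around Ncoa4 15.6% of 45. The part that position plays in these results was not tested.

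**Figure D4:**
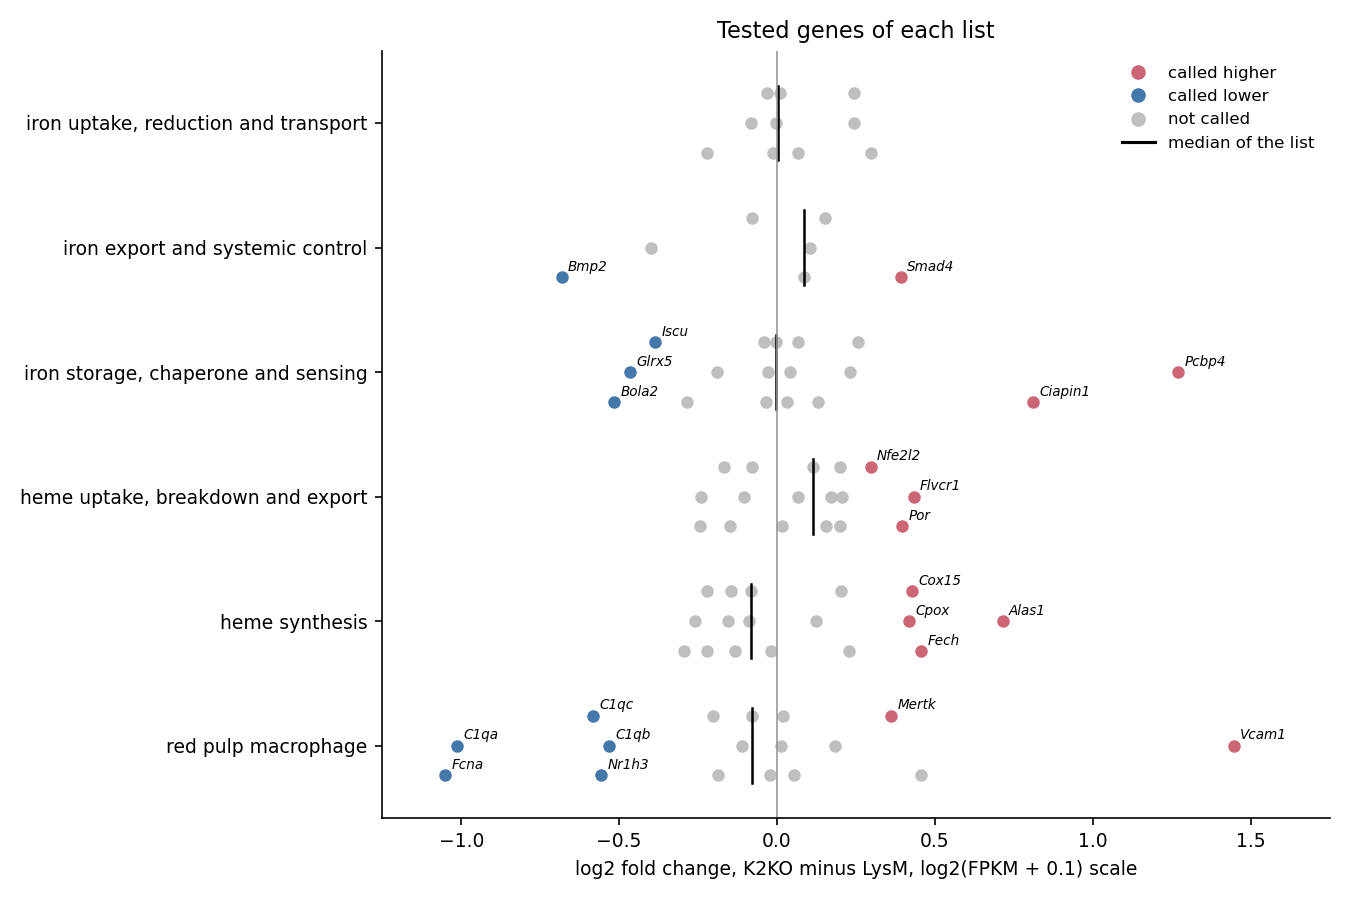
Log2 fold change (K2KO minus LysM, horizontal axis) of the tested genes of 6 lists, a point per gene, coloured where called, with a black line at each list's median. The medians of the 5 iron and heme lists lie between -0.083 and 0.11, and the called genes lie on both sides.

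**Figure D5:**
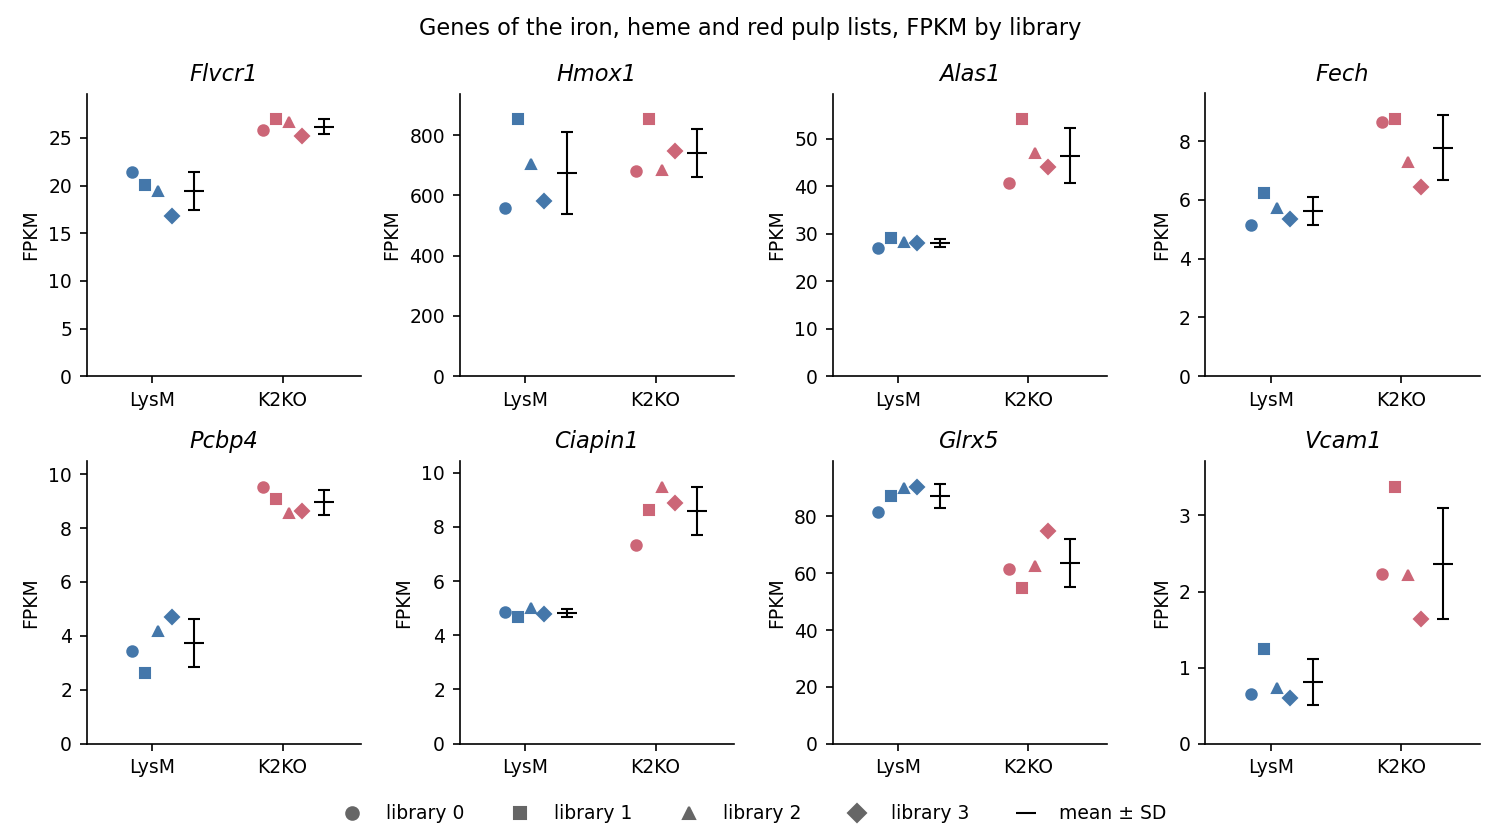
FPKM (vertical axes, from 0) of 8 genes of the lists in each library, with a symbol per library number and the mean ± SD in black. The groups are separate for Flvcr1, Alas1, Fech, Pcbp4, Ciapin1, Glrx5 and Vcam1, and overlap for Hmox1, where LysM1 and K2KO1 were both at 852 FPKM.

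Genes listed for red pulp macrophages, other than Spic, moved in both directions. This list, like the others, was chosen with earlier results of these data known, so its shares are descriptions. Of 17 tested, 2 were higher and 5 lower, or 41.2% against 18.4% of all tested genes, with a median log2 fold change of -0.079 against 0.011. After the correction for GC content and length 5 of the 17 were called, or 29.4% against 8.22%, with a median of -0.057 against -0.015. Vcam1, an adhesion molecule of these cells, was at 0.650, 1.25, 0.738 and 0.597 FPKM in LysM0 to LysM3, and at 2.23, 3.38, 2.22 and 1.64 FPKM in K2KO0 to K2KO3 (log2 fold change 1.45, SE 0.27, limma adjusted p = 0.0126). Vcam1 was low in absolute terms, as Spic was, but its groups did not overlap, whereas those of Spic did. Mertk, an efferocytosis receptor, rose by 0.36 (SE 0.09, adjusted p = 0.0285). Vcam1 lost its call without LysM3 (adjusted p = 0.0517) and with quantile normalization (1.88 on the log2 scale, adjusted p = 0.0724), and Mertk without any library but LysM0 and K2KO3 (0.0669 to 0.0938) and after the correction for GC content and length (0.0924).

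The lower genes of the red pulp list ranged from Fcna, near the level of Mertk, to the abundant complement genes. The complement genes C1qa, C1qb and C1qc, which are neighbours on chromosome 4, averaged 2685, 4753 and 3515 FPKM in LysM libraries, against 1338, 3292 and 2355 FPKM in the libraries labelled K2KO. Their log2 fold changes were -1.01 (SE 0.15), -0.53 (SE 0.11) and -0.58 (SE 0.10), with limma adjusted p of 0.00772, 0.0148 and 0.0112. Fcna, a ficolin, fell from 19.9 ± 2.56 to 9.51 ± 0.289 FPKM (-1.05, SE 0.09, limma adjusted p = 4.3e-04). Nr1h3, the nuclear receptor LXR alpha, fell from 29.4 ± 2.35 to 20.04 ± 2.32 FPKM (-0.56, SE 0.09, limma adjusted p = 0.0109). The groups did not overlap for any of the 5. C1qc lost its call without LysM3 (adjusted p = 0.0633) and C1qb without LysM3 or K2KO2 (up to 0.0890) and with quantile normalization (0.0570). Nr1h3 had an adjusted p of 0.0512 after the correction for GC content and length. Adgre1 and Cd5l, both typical of these cells, averaged 433 and 204 FPKM in LysM and 439.6 and 181 FPKM in K2KO libraries and were not called.

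Markers of other cells were low or did not follow the genotype, with some exceptions. Of the 13 erythroid markers, 9 were listed, and Epor, the 1 tested at the filter of 1 FPKM, was not called. Hba-a1, Klf1 and Gata1, tested in the fit down to 0.1 FPKM, were not called either. The summed FPKM of the 9 was 2.55, 3.00, 2.09 and 3.61 in LysM0 to LysM3, and 2.57, 2.91, 2.31 and 3.24 in K2KO0 to K2KO3. Epor, the erythropoietin receptor and the most abundant on average, was at 1.751, 1.56, 1.87 and 2.16 FPKM in LysM0 to LysM3, and at 1.36, 1.52, 1.38 and 1.11 FPKM in K2KO0 to K2KO3. Its groups did not overlap, and its log2 fold change of -0.42 (SE 0.15) did not pass the test (limma adjusted p = 0.0670). It passed with quantile normalization (-0.52, adjusted p = 0.0364), and was -0.22 (adjusted p = 0.391) after correction for GC content and length. Hba-a1, an alpha globin gene, was at 0.543, 0.918, 0 and 0.836 FPKM in LysM0 to LysM3, and at 0.854, 0.883, 0.422 and 1.25 FPKM in K2KO0 to K2KO3, and the groups overlapped. The other globin genes listed, Hba-a2, Hbb-bs and Hbb-bt, reached at most 0.307 FPKM, and Hbb-bt was listed at 0 in every library.

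The 11 neutrophil markers summed to 190.2, 275, 237 and 325 FPKM in LysM0 to LysM3 and to 179, 298, 235 and 314 FPKM in K2KO0 to K2KO3, with S100a9 the most abundant and 1 of 9 tested, Camp, called lower. The 5 megakaryocyte markers summed to 145, 285, 306 and 355 FPKM and to 367, 169, 306 and 365 FPKM, nearly all of it Pf4, with 1 of 3 tested, Ppbp, called higher (limma adjusted p = 0.0291, and 0.0674 after correction for GC content and length). The 6 B cell markers summed to 13.3 to 30.9 FPKM and to 17.1 to 30.2 FPKM, mostly Ighm, with none of 2 tested called. These sums overlapped between the groups.

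The 6 T and NK cell markers summed to 0.361, 0.613, 0.385 and 0.640 FPKM in LysM0 to LysM3, and to 0.754, 0.802, 0.641 and 1.45 FPKM in K2KO0 to K2KO3, led by Nkg7. These sums did not overlap, but every marker stayed under 1 FPKM. The 8 dendritic cell markers, led by Ccr7, summed to 0.733 to 3.01 and 2.47 to 5.74 FPKM, the 6 listed mast cell and basophil markers, led by Gata2, to 0.432 to 0.839 and 0.817 to 1.58 FPKM, and the 8 fibroblast markers, led by Dcn, to 0.295 to 1.46 and 0.683 to 3.52 FPKM. These sums were higher on average in the libraries labelled K2KO, as Spic and Vcam1 were, and their part in those results was not tested. Gp9 of the megakaryocyte list and Kit of the mast cell list, both under the filter of 1 FPKM, were called higher in the fit down to 0.1 FPKM (limma adjusted p = 0.0246 and 0.0314). Kit lost its call after correction for GC content and length (0.0567), with quantile normalization (0.0559), with the column number as a block (0.0653) and without LysM1, LysM3, K2KO0, K2KO1 or K2KO2 (up to 0.0782), and Gp9 without LysM2, LysM3, K2KO0 or K2KO2 (up to 0.0745). Without 1 library Ppbp lost its call for LysM2, LysM3, K2KO0 or K2KO1 (up to 0.0949), and Camp for LysM1, LysM3 or K2KO2 (up to 0.0738).

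Promoters, from 250 bases before to 50 after the start, are given by RefSeq (GRCm38.p6) for 7 of the 10 members, with 11 entries. The letters CACCC, the core of sites bound by Krüppel-like factors, were found on either strand in 6 of the 11 and in 57.5% of all 32851 promoters. The Spic promoter held 2 matches. A match is a description and not a site.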

How the data were processed

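The authors sequenced BMDM RNA (isolated with RNeasy by the methods, with HighPure by the labels; a stranded TruSeq total RNA library), aligned the reads with TopHat2 to mm10 and computed FPKM with Cufflinks, while the submitters' processing notes name STAR, Cufflinks and Cuffdiff. Versions are not given in the sources used here. The deposited FPKM table has a column per library, with no pooling. Identifiers were matched to GENCODE M21 (23645 of 23761), and members were taken by identifier, since 856 rows carry another name.

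FPKM were tested with limma 3.58.1 in R 4.3.3 (lmFit, then eBayes with a trend in mean expression) on log2(FPKM + 0.1), with Benjamini-Hochberg adjustment and no covariate. The procedure was tested on simulated data. Copies were sought with blastn, from 95% identity and 200 aligned bases. The correction removed a local regression (span 0.3) of each library on length and GC content.

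The members and lists were chosen with earlier results of these data known. Named are the members, Klf2, the called genes of each list (up to 5), its most abundant gene, the 5 genes most like Spic, and copies. Mertk, Adgre1, Cd5l, Hdac7, Slc39a8, Slc39a14 and the single cell type markers were chosen after their values were seen. So were the genes around Alas1, Pcbp4 and Ciapin1.

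Mice are 1 per library by the labels, and p-values measure the spread between these libraries.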

Additional observations from a re-analysis of the deposited data

Results flagged for a closer look

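A sample far from the other 3 of its group was found in 5 of 84 groups of 4 libraries, and chance flags about 1 in 20, or 4.2. Spic was at 0.933 FPKM in LysM1, the highest of its group. The copy Gm15590 of Ftl1 was at 10.2 FPKM in K2KO0, the lowest of its group. Fth-ps2 was at 0.119 FPKM in LysM2 and was listed at 0 in the other LysM libraries. Tmem14c was at 175 FPKM in K2KO3, above the other K2KO libraries, and Cox15 at 4.46 FPKM in K2KO3, below them.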

How the results depend on the processing

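All fits here used limma. Of 10920 tested genes 2014 were called. The number was 898 after correction for GC and length, 1090 with no filter on low values, and 337 (without LysM3) to 2837 (without K2KO3) with 1 library left out. Of the 6 members, 2 were called. The number was 1 without an intensity trend (Slc40a1), 0 after the correction, 0 with no filter (3 at an unadjusted p under 0.05), and 0 to 3 with 1 library left out (2 or 3 at an unadjusted p under 0.05 where it was 0). Of the pathway genes 14 were called, 9 with no filter and 4 (without LysM3) to 24 (without K2KO3) with 1 library left out. With a pseudocount of 1 or 0.01 each of these 3 counts stayed within 1.5 times its value, while the log2 fold changes of genes under 1 FPKM moved more, from 1.00 to 0.51 for Spic and from -0.67 to -0.16 for Cd163 with a pseudocount of 1. With quantile normalization 2 members were called, Slc40a1 and Slc48a1, and in the fit down to 0.1 FPKM 2 of 8, Slc40a1 and Spic. Slc11a1, not called in any fit, turned from -0.03 to 0.13 with quantile normalization, 0.0097 with upper-quartile scaling and 0.047 with the correction, and ranged from -0.12 to 0.021 with 1 library left out. The cause was not tested.

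Same-numbered libraries did not deviate together (correlations -0.070, 0.020, 0.073 and -0.057), so the numbers were not taken as pairs. Which mouse a column holds, and so whether any are paired, is not known. With the column number as a block 2057 genes, 2 members and 14 pathway genes were called (Por lost its call, adjusted p = 0.0534), and with the block and the correction 720, 1 (Slc40a1) and 6, with Slc11a1 at 0.047. Without read counts, the precision of low values such as those of Spic and Cd163 is unknown.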
